A study of Mus musculus
Mus spretus with 18 samples.

Results

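Exons that were spliced into mRNA more often after pladienolide B were examined in mouse fibroblasts of the cross of C57BL/6J, the common laboratory strain, with SPRET/EiJ, an inbred strain of Mus spretus. These 499 skipped exon (SE) events were chosen by their measured values, from the 54535 autosomal SE events that were covered by 20 or more reads in all 4 fibroblast libraries, out of 67961 events in the table. An event was a member if its mean percent spliced in (PSI, the share of transcripts that include the exon, from 0 to 1) was at least 0.05 higher after pladienolide B than after DMSO, and if both treated libraries lay above both control libraries. The members were 0.915% of the events measured, and they hold 481 distinct exons of 423 genes. In the opposite direction, 7466 events, 13.7%, had a PSI that was lower by at least 0.05 with the libraries apart. Only 5475 of the events measured had a mean PSI of 0.95 or less in DMSO and so had room for such a rise. These are called eligible events, and the members were 9.11% of them.

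The control group consisted of 2 libraries of F1 fibroblasts kept for 4 h with the solvent DMSO, and the treated group of 2 libraries of F1 fibroblasts after 4 h with 0.1 microM pladienolide B (PladB). The fibroblasts were derived from F1 mice, and nothing in the labels says that the 2 libraries of a group were separate cultures, so their spread may be technical. For the tissues, the study used 14 libraries of the same cross, 2 each from cortex, heart, kidney, lung, spleen and liver of mice aged 8 weeks and 2 from embryonic stem cells (ESC), which were different clones. The organs came from the same 2 animals, so the organ libraries are not independent of each other. Which library came from which animal is not given in the sources used here, and the p-values over tissues treat the libraries as independent. The liver labels read C57BL/7J and C57BL/8J in place of C57BL/6J, and the libraries were used as F1 liver.

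Introns are removed by the spliceosome, and its U2 snRNP recognises the branch point upstream of each exon with the help of the SF3B complex. Pladienolide B, a macrolide from Streptomyces, binds SF3B1 and hinders this step. Such drugs are known for exon skipping and intron retention, and an exon that is included more often is the less usual outcome. An exon whose length is divisible by 3 can enter or leave a coding sequence without shifting the reading frame. Other cassette exons carry a stop codon or shift the frame, so that inclusion or skipping exposes the mRNA to nonsense-mediated decay, and many genes of splicing factors carry such poison exons and use them to regulate their own level.

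Total junction reads, summed over all SE events with a junction counted in each event that holds it, were 148813435 and 151755602 in the DMSO libraries and 129067054 and 149420347 in the PladB libraries. The fibroblast libraries had TPM values, which scale the transcripts of each library to 1 fixed total, of Col1a1, a collagen chain, from 1005 to 1092 and of Vim, the intermediate filament of mesenchymal cells, from 4397 to 4721. The leukocyte gene Ptprc, the endothelial gene Pecam1 and the epithelial gene Epcam were all at or below 0.0584 TPM there. Of the 6 fibroblast markers, Pdgfrb differed most between the groups, with 227.4 and 207.5 TPM in DMSO and 44.5 and 43.6 in PladB, and Thy1 was low in all libraries, from 5.51 to 8.16 TPM. Of the organ markers, Snap25 reached at least 893.8 TPM in cortex, Myh6 at least 11969 in heart, Sftpb at least 4339 in lung and Alb at least 84064 in liver.

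A median member had 282 and 285 junction reads in the DMSO libraries but 66 and 82 in the PladB libraries. Of the 499 members, 293 had at least 50 reads in each library and 180 had at least 100, while 93 had fewer than 30 reads in their shallowest library. The shallowest library of a median member had 62 reads, against 121 for the eligible events. The 2 DMSO libraries of a median member differed by 0.0284 in PSI and the 2 PladB libraries by 0.0299, against 0.015 and 0.0239 in the eligible events. The difference between the group means was larger than the wider of the gaps between replicates in 408 members, and more than 3 times as large in 147. With 2 libraries against 2, an exact permutation test cannot give a p below 0.333, and since this contrast chose the members, their fibroblast values are a description without a test.

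The median difference in mean PSI was 0.0927, the upper quartile 0.132 and the largest value 0.521. The difference was at least 0.1 in 211 members, at least 0.2 in 53 and at least 0.3 in 26. The median PSI of the members was 0.739 in DMSO and 0.878 in PladB. Most members were thus exons that the untreated fibroblasts already included. In DMSO, 62 members had a PSI under 0.1, 110 lay from 0.1 up to 0.5, 216 from 0.5 up to 0.9, and 111 at 0.9 or more. The exon changed from the minor to the major form in 35 members, with a mean PSI under 0.5 in DMSO and over 0.5 in PladB. In 96 members no skipping read was left in either PladB library. At 20 reads a count of 0 allows skipping reads to be up to 15% of the reads. This limit, like the intervals given here, covers counting error only. Such limits are shares of the reads, before each form is divided by its effective length. The inclusion form has the greater effective length, so on the PSI scale the skipped share allowed is higher.

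**Figure D1:**
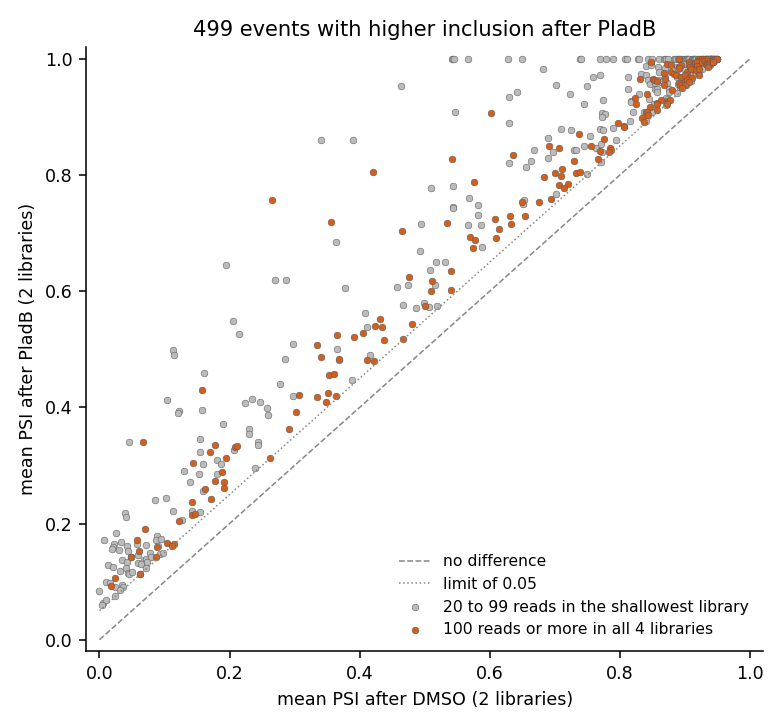
Mean PSI after PladB (y axis) against mean PSI after DMSO (x axis), each over 2 libraries, for the 499 members. Orange points are the 180 members with at least 100 reads in every library and grey points the others, which hold most of the largest differences. The dotted line is the limit of 0.05 that chose the members.

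At the limit of 0.05, 2 members with at least 100 reads in every library were just inside. An exon of Fam172a had a PSI of 0.0686 and 0.0572 in DMSO and of 0.124 and 0.102 in PladB, a mean difference of 0.0503. An exon of Ganab, the catalytic alpha subunit of glucosidase II of the endoplasmic reticulum, had 0.909 and 0.962 in DMSO and 0.993 and 0.979 in PladB, a difference of 0.0505. Just outside were exons of Plxnb1, a semaphorin receptor, and of Aasdhppt, with differences of 0.0498 and 0.0499. Plxnb1 had no skipping read in either PladB library, which allows skipping reads to be up to 2.78% and 2.48% of the reads. The values inside and outside the limit were thus nearly the same.

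A higher PSI can come with more inclusion reads, with fewer skipping reads or with unequal loss of both, so the forms were counted apart, after scaling each library to the same total of junction reads (RPM, the reads of a form as a share of the library's junction total, scaled as TPM is). Skipping reads were lower in both PladB libraries than in both DMSO libraries in 467 of the 499 members (93.6%), against 66.1% of the eligible events. Over all events measured the share was 13.8%, but most of these had a PSI near 1 in DMSO and few skipping reads to lose. The median ratio of PladB to DMSO was 0.14 for the skipping reads. Inclusion reads were also lower in 350 members (70.1%, against 77.9% of all events), with a median ratio of 0.528, and they were higher in 74 members (14.8%, against 15.2% of all events). Both forms were lower in 350 members, against 2890 of the 5475 eligible events and 6295 of all 54535. In 46 members the inclusion reads were higher and the skipping reads lower, against 92 of the 5475 eligible events and 449 of all 54535. Both forms were higher in 7 members, against 321 of the eligible events and 2769 of all events. These 7 were the only members with higher skipping reads, against 26.8% of all events. For comparison, the median ratios over the eligible events were 0.379 for inclusion and 0.494 for skipping reads. The direction of the PSI chose the members, so that skipping reads fell behind inclusion reads by construction. An event with lower inclusion reads and a higher PSI must also have lower skipping reads, so the count for both forms repeats that for inclusion. The share of members with lower inclusion reads was close to the 68.7% of the eligible events. Among the 180 members with at least 100 reads the median ratios were 0.738 for inclusion and 0.238 for skipping reads.

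**Figure D2:**
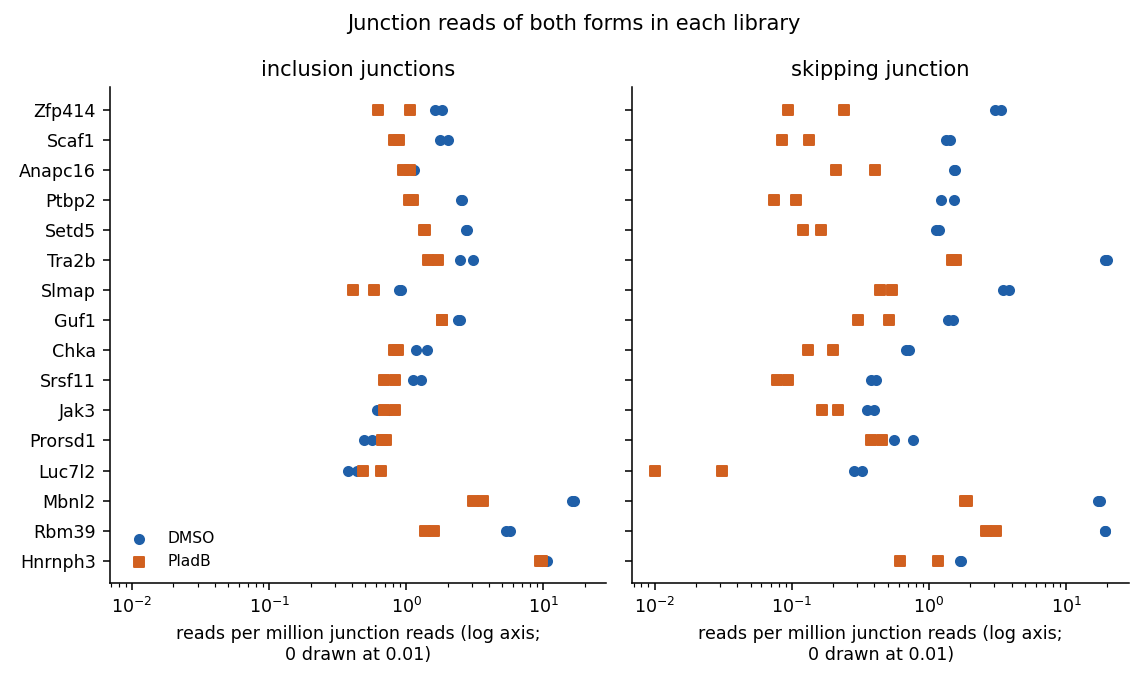
Inclusion reads (left) and skipping reads (right) in RPM of each library, on log axes, for the exons with the largest differences and those of splicing and RNA-binding genes. Each point is 1 library, blue circles DMSO and orange squares PladB, and a count of 0 is drawn at 0.01. The skipping reads differ between the groups by a larger ratio than the inclusion reads in every row.

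The largest difference among members with at least 100 reads in every library was that of a 77 bp exon of Zfp414, a zinc finger gene, at chr17:33629622-33629698 (mm10, plus strand). Its PSI was 0.286 and 0.244 in DMSO and 0.884 and 0.631 in PladB, a mean difference of 0.493. The PladB libraries were far apart, but the lower of them still lay well above both controls. The skipping reads were 3.04 and 3.35 RPM in DMSO and 0.093 and 0.241 in PladB, and the inclusion reads 1.83 and 1.63 against 1.07 and 0.622. Both forms thus had a smaller share of the junction reads. The introns at this exon are short, 405 bp upstream and 98 bp downstream.

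A 50 bp exon of Anapc16, a subunit of the anaphase-promoting complex that marks cell cycle proteins for degradation, lies at chr10:60002418-60002467 on the minus strand. Its PSI was 0.355 and 0.356 in DMSO and 0.773 and 0.667 in PladB. The inclusion reads were only slightly lower after PladB, 1.13 and 1.12 RPM in DMSO and 0.945 and 1.07 in PladB, and the skipping reads were 1.55 and 1.52 against 0.209 and 0.402. A second exon of this gene, of 167 bp, had a PSI of 0.843 and 0.86 in DMSO and of 0.973 and 0.953 in PladB. Its skipping reads had the same values as those of the 50 bp exon, so the 2 events are not independent.

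A 225 bp exon of Setd5, a gene with a SET domain of the kind found in histone methyltransferases, had a PSI of 0.547 and 0.538 in DMSO and of 0.808 and 0.847 in PladB. It lies at chr6:113105917-113106141 on the plus strand. The same exon, joined to another downstream exon, was a member a second time, with 0.865 and 0.892 in DMSO and 1 and 0.98 in PladB. The value of 1 came from 0 skipping reads, which allows skipping reads to be up to 1.73% of the reads. In both events the groups were apart by more than either pair of replicates.

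A 51 bp exon of Slmap, a membrane protein of the sarcolemma and the centrosome, had a PSI of 0.148 and 0.165 in DMSO and of 0.41 and 0.449 in PladB. A 140 bp exon of Guf1, a mitochondrial GTPase that acts in translation, went from 0.472 and 0.458 to 0.756 and 0.65. A 54 bp exon of Chka, choline kinase alpha, which starts phosphatidylcholine synthesis, had 0.603 and 0.549 in DMSO and 0.829 and 0.748 in PladB. The replicates of these exons lay within 0.11 of each other in every group, and the groups did not overlap.

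In 2 of the 12 leading members, the inclusion reads were not lower after PladB. An 85 bp exon of Jak3, the Janus kinase of cytokine receptors with the common gamma chain, had a PSI of 0.573 and 0.498 in DMSO and of 0.71 and 0.725 in PladB, with inclusion reads of 0.746 and 0.613 RPM in DMSO and 0.829 and 0.689 in PladB, which overlap. A 91 bp exon of Prorsd1 had a PSI of 0.384 and 0.285 in DMSO and of 0.522 and 0.493 in PladB. Its inclusion reads were 0.558 and 0.488 RPM in DMSO and 0.666 and 0.709 in PladB. Here the included form itself had a larger share of the junction reads in both treated libraries.

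**Figure D3:**
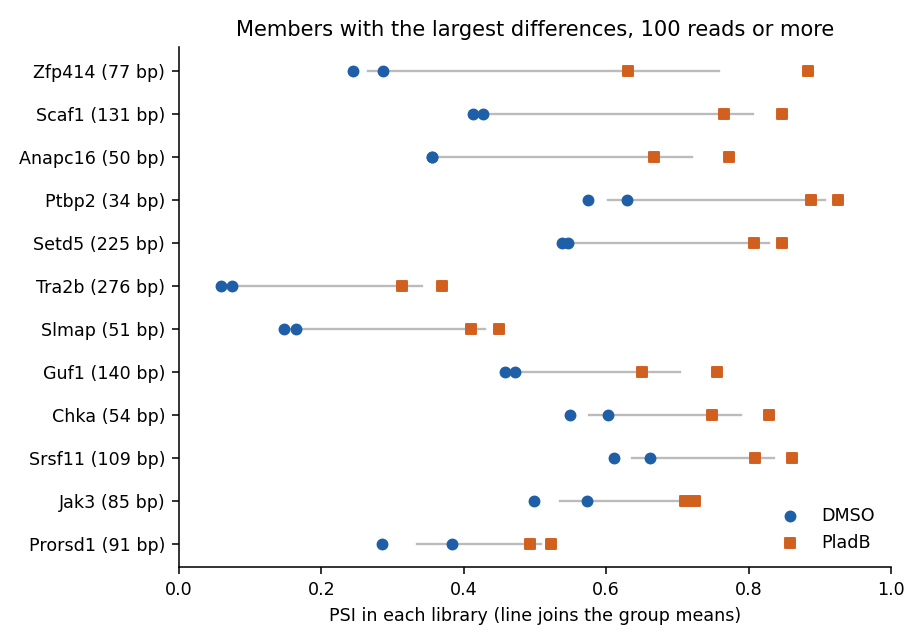
PSI in each fibroblast library (x axis) for the 12 members with the largest differences among those with at least 100 reads in every library, 1 event per gene. Blue circles are DMSO and orange squares PladB libraries, and the grey line joins the group means. The treated libraries lie to the right of the controls in each row, as the rule requires, and those of Zfp414 are farthest from each other.

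Of the 86 genes of splicing and RNA binding with an eligible event, 16 held a member (18.6%), against 13.8% of all 3074 genes with an eligible event. They account for 18 members, and only 2 of these, in Luc7l2 and Tra2b, had a length divisible by 3 (11.1%), against 39.3% of all members and 37.5% of the eligible events in these genes. Over the whole list, whether or not a gene had an eligible event, 107 genes held an event with lower inclusion, as did 3382 of the 8762 genes with an event measured.

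Tra2b encodes an SR-like protein that activates exons, and it is known for a poison exon through which the protein limits its own level. Its member was an exon of 276 bp at chr16:22258986-22259261 on the minus strand. The PSI was 0.0743 and 0.0589 in DMSO and 0.313 and 0.369 in PladB. The reads assigned to an allele did not show this rise, as described below. In reads, the skipping form fell behind the most, from 19.1 and 19.7 RPM in DMSO to 1.57 and 1.47 in PladB. The inclusion reads were 3.07 and 2.46 against 1.43 and 1.71, so the included form also had a smaller share of the junction reads in both treated libraries. Tra2b as a whole had 101.9 and 101.7 TPM in DMSO and 22.1 and 23 in PladB.

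Ptbp2 encodes the neuronal PTB protein, and the gene is known for a frame-shifting exon that neurons include and that its relative Ptbp1 represses in other cells. The member was a 34 bp exon at chr3:119724612-119724645 on the minus strand, with a PSI of 0.574 and 0.629 in DMSO and of 0.888 and 0.925 in PladB. The groups were apart by more than 5 times the wider replicate gap. The inclusion reads were 2.53 and 2.52 RPM in DMSO and 1.05 and 1.11 in PladB, the skipping reads 1.53 and 1.22 against 0.108 and 0.0736.

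Scaf1, an SR-related protein that associates with the C-terminal domain of RNA polymerase II, had a 131 bp exon at chr7:45014205-45014335 on the minus strand with a PSI of 0.427 and 0.413 in DMSO and of 0.847 and 0.765 in PladB. An 84 bp exon of Luc7l2, a relative of a yeast U1 snRNP protein, had 0.498 and 0.428 in DMSO and 0.909 and 1 in PladB. The value of 1 had 0 skipping reads, a count that allows up to 3.09% of the reads. Of the named exons of this list, that of Luc7l2 had more inclusion reads in both treated libraries, 0.48 and 0.649 RPM against 0.437 and 0.376 in DMSO. A 109 bp exon of Srsf11, an SR-related splicing factor, went from 0.611 and 0.661 to 0.861 and 0.809.

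A 95 bp exon of Mbnl2, a muscleblind protein that controls developmental splicing switches, had a PSI of 0.372 and 0.358 in DMSO and of 0.509 and 0.54 in PladB. It was well covered, with 5029 and 5144 reads in DMSO and 633 and 821 in PladB, and the replicates differed by far less than the groups. A 73 bp exon of Rbm39, an RNA-binding protein related to the U2AF large subunit, had 0.167 and 0.157 in DMSO and 0.26 and 0.258 in PladB. A 139 bp exon of Hnrnph3, an hnRNP protein that binds G-rich RNA, had 0.747 and 0.766 in DMSO and 0.889 and 0.813 in PladB. In these 3 genes skipping was the form that lost more reads, with ratios of 0.106, 0.148 and 0.523 for the skipping reads and of 0.204, 0.267 and 0.942 for the inclusion reads.

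In the list of apoptosis, p53 and cell cycle genes, 7 of 49 genes with an eligible event held a member (14.3%). Of their 8 members, 1 had a length divisible by 3 (12.5%), against 40.7% of the 86 eligible events in the list. Besides Anapc16, a 47 bp exon of Cdk11b, a cyclin-dependent kinase tied to transcription and splicing, had a PSI of 0.191 and 0.154 in DMSO and of 0.24 and 0.244 in PladB. A 94 bp exon of Ccnc, cyclin C of the Mediator kinase module, had 0.307 and 0.388 in DMSO and 0.418 and 0.402 in PladB. The controls of Ccnc were farther apart than the nearest libraries of the groups, and its difference of 0.0624 was below the gap between the controls.

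Chromatin and transcription genes held members in 16 of 90 genes (17.8%). Of their 21 members, 13 had a length divisible by 3 (61.9%), against 54% of the eligible events in the list. The list was made from symbol patterns. Besides Setd5, the exons named by the rule lie in Setd6, a lysine methyltransferase. A 121 bp exon had a PSI of 0.821 and 0.861 in DMSO and of 1 and 0.976 in PladB, and a 181 bp exon had 0.855 and 0.863 against 1 and 0.973. Their skipping reads were equal in each library, since both events share 1 skipping junction.

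Genes of matrix and adhesion held members in 6 of 41 genes (14.6%), and none of the 6 had a PSI under 0.5 in DMSO. A 600 bp exon of Col6a3, a chain of collagen VI that is known for alternative exons encoding von Willebrand factor A domains, had a PSI of 0.594 and 0.671 in DMSO and of 0.744 and 0.687 in PladB. It lies at chr1:90813215-90813814 on the minus strand, and the gap between the lower treated and the higher control library was narrower than that between the controls. Its inclusion reads were 2.3 and 1.72 RPM in DMSO and 3.38 and 2.99 in PladB. The other named exons of the list lie in genes of extracellular ADAMTS proteases. The 131 bp exon of Adamts16 had 0.871 and 0.899 in DMSO and no skipping read in PladB, which allows up to 3.7% and 4.69% of the reads. The 146 bp exon of Adamts7 had 0.843 and 0.862 in DMSO and 0.933 and 0.913 in PladB, and that of Adamts6 had 0.927 and 0.95 against 1 and 0.978.

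Genes of the cytoskeleton and of trafficking held members in 15 of 131 genes (11.5%). Of these 19 members, 12 had a length divisible by 3 (63.2%), against 69.1% of the eligible events of the list, and 10 had a PSI under 0.5 in DMSO. A 48 bp exon of Arhgap17, a GTPase-activating protein of cell junctions, had 0.141 and 0.119 in DMSO and 0.427 and 0.156 in PladB, so that 1 treated library carried most of its difference. A 123 bp exon of Rhot1, a mitochondrial GTPase that links mitochondria to motors, had 0.423 and 0.396 against 0.484 and 0.64. A 57 bp exon of Myo9a, an unconventional myosin, had 0.383 and 0.399 against 0.559 and 0.486. A 106 bp exon of Kif1c, a kinesin motor, had 0.66 and 0.641 in DMSO and 0.781 and 0.725 in PladB, with at least 1710 reads in every library.

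Members lay in 13 of 73 zinc finger genes (17.8%), 17 of 116 ubiquitin genes (14.7%), 10 of 87 genes of mitochondria and translation (11.5%) and 7 of 94 kinase and phosphatase genes (7.45%). The 17 zinc finger members had a median difference of 0.21, against 0.0927 over all members, and 10 of them had a PSI under 0.5 in DMSO. The members of the other lists named had medians from 0.0649 to 0.12. These lists were not tested as sets, and the shares above lie around the 13.8% of all genes.

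A member exon was 108 bp long at the median (95% interval from the order statistics 103 to 115 bp), with quartiles of 73.5 and 154 bp. The eligible events had a median of 103 bp and the events with lower inclusion of 110 bp. Micro-exons, of at most 30 bp, were 10 of the 499 members (2%), against 4.51% of the eligible events and 1.55% of the events with lower inclusion. The intron upstream of a member exon had a median of 2249 bp and the intron downstream of 2807 bp. The eligible events had 2142 bp and 2222 bp, and the events with lower inclusion 2386 bp and 1976 bp. By median length, the downstream intron was the longer one at members and, by less, at eligible events. It was the shorter one at events with lower inclusion and over all events measured, with 2038 bp upstream and 1789 bp downstream. Among members with at least 100 reads the medians were closer, 2405 bp upstream and 2498 bp downstream.

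Among the members, 196 of 499 exons had a length divisible by 3, which is 39.3% (95% Clopper-Pearson interval 35% to 43.7%). Over the eligible events the share was 47.6% (46.3% to 49%), over the events with lower inclusion 40.3% and over all events measured 40.6%. The members were thus below the eligible events and close to exons at large. With at least 100 reads in every library the shares were 37.8% of the members and 49.6% of the eligible events. At each starting level the members had the lower share: 37.1% against 47.8% for a PSI under 0.1 in DMSO, 48.2% against 55.8% from 0.1 up to 0.5, 38% against 48.3% from 0.5 up to 0.9, and 34.2% against 40.9% from 0.9 on. Without the first PladB library the share of members was 44.5%, nearer to the 47.7% of the eligible events. The design gave no test for this comparison, and the members are not independent of each other, since several events share an exon or a gene.

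**Figure D4:**
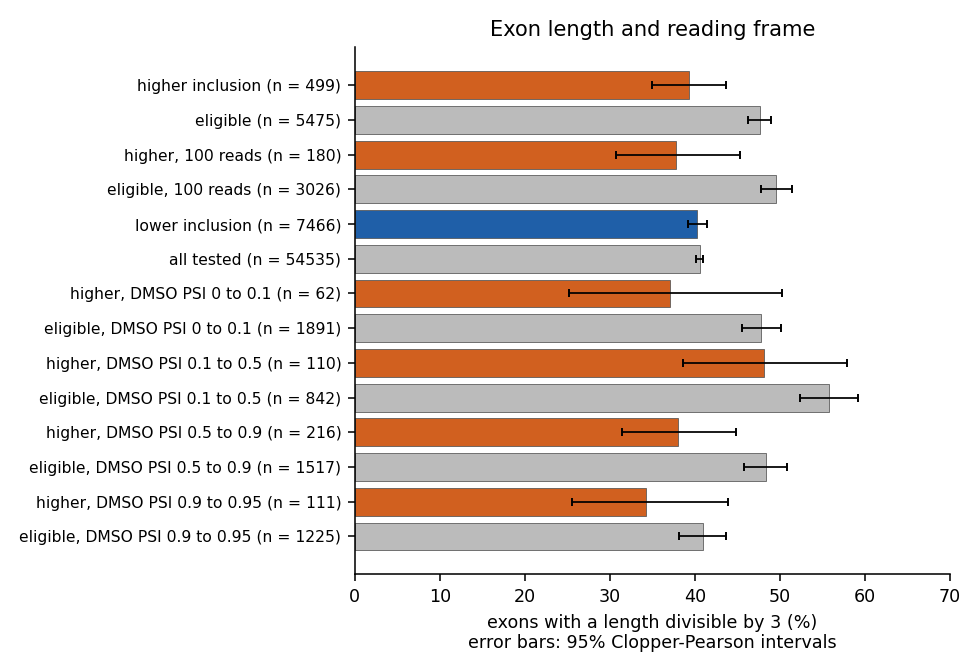
Share of exons with a length divisible by 3 (x axis, percent) for members (orange), eligible and all events (grey) and events with lower inclusion (blue), with the number of events in parentheses and 95% Clopper-Pearson intervals as error bars. The members lie below the eligible events of the same PSI in DMSO in each of the 4 ranges, and the intervals of the smaller groups overlap.

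The micro-exons with at least 50 reads give the values behind these counts. A 24 bp exon of Layn, a hyaluronan receptor, had a PSI of 0.503 and 0.52 in DMSO and of 0.633 and 0.6 in PladB, with at least 615 reads. A 30 bp exon of Arhgef11, a guanine nucleotide exchange factor, had 0.801 and 0.776 against 0.904 and 0.86. A 25 bp exon of Dpy19l1 had 0.733 and 0.809 against 0.873 and 0.833, and a 25 bp exon of Ccdc101 had 0.0445 and 0.0464 against 0.0633 and 0.163. A 30 bp exon of Edil3, an integrin ligand of the matrix, had 0.693 and 0.697 against 0.749 and 0.768. Of these 5, Edil3 had more reads of both forms after PladB, with a ratio of 2.13 for inclusion and 1.54 for skipping reads. The gene had 2.15 and 2.21 TPM in DMSO and 3.31 and 3.37 in PladB. All of these differences except that of Layn were under 0.1.

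In 45 genes at least 2 distinct exons were members. Wiz, a zinc finger protein that acts with the G9a and GLP histone methyltransferases, held the most. A 73 bp exon had a PSI of 0.29 and 0.437 in DMSO and of 0.695 and 0.673 in PladB, and a 101 bp exon that overlaps it had 0.172 and 0.276 against 0.415 and 0.398. A 152 bp exon had 0.225 and 0.292 against 0.376 and 0.397. A 504 bp exon had 0.914 and 0.957 in DMSO and no skipping read among 108 and 134 reads in PladB, which allows up to 2.78% and 2.24% of the reads. The other 2 Wiz members, of 171 and 279 bp, also had no skipping read in PladB, but at 23 reads in the shallower library the limit is 13%. The 171 and 504 bp events had equal skipping reads in each library, and so did the 73 and 101 bp events. The events of each of these pairs are thus not independent. The members of this gene thus span both included and mostly skipped exons.

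Lrrc14, a leucine-rich repeat protein, had 4 members, which are 2 pairs with a shared end. The best covered, of 585 bp, had a PSI of 0.821 and 0.858 in DMSO and of 0.946 and 1 in PladB, where only 36 and 54 reads were left. Their reads dropped far more than the PSI changed, with inclusion ratios from 0.0657 to 0.162. In Kif1c the 3 member exons share 1 end and differ in their start, and the longest, of 180 bp, had 0.739 and 0.726 against 0.823 and 0.782. In Eif4g3, a scaffold of the translation initiation complex, 2 members of 106 and 109 bp differ by 3 bp at the start, and a separate exon of 129 bp had 0.667 and 0.685 in DMSO and 0.747 and 0.762 in PladB.

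Of the 423 genes with a member, 198 (46.8%) also held an event with lower inclusion, a share near to and below the 51.2% of the genes with an eligible event. In 39 exons the direction depended on the event, so that 1 exon was a member with 1 pair of flanking exons and had lower inclusion with another pair. In 94 members (18.8%, against 16.2% of the eligible events) a flanking exon was itself an exon with lower inclusion. A PSI is measured between given flanking exons, and how far the skipping of neighbours contributed to these members was not tested.

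Reads that carry a strain difference were counted by allele, and 171 members had at least 20 such reads on each allele in each of the 4 libraries. The tables list the alleles in order without naming the strain. The mean PSI was higher after PladB on both alleles in 145 of the 171 members (84.8%), against 10.9% of all events with allelic reads and 19.8% of the eligible ones. In 80 members (46.8%, against 1.95% of all events) the treated libraries lay above the controls on each allele. Since allelic reads are a part of the reads that chose the members, this is a description. The paper warns that allelic PSI may be inaccurate where variants are sparse. It kept only events whose PSI matched with and without the unassigned reads. That filter was not applied here, so the allelic PSI of single events can differ from the total. The median difference was 0.08 on the first-listed and 0.0838 on the second-listed allele, and the first was the larger in 86 members and the second in 85, so neither allele changed more in general. The differences of the alleles were 0.0634 apart at the median and more than 0.2 apart in 12 members.

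The exon of Zfp414 had a PSI of 0.331 and 0.282 in DMSO and of 0.884 and 0.57 in PladB on the first-listed allele, and of 0.237 and 0.196 against 0.882 and 0.731 on the second. The Mbnl2 exon, with at least 245 reads per allele and library, had 0.296 and 0.324 against 0.518 and 0.479 on the first, and 0.312 and 0.293 against 0.42 and 0.492 on the second. In these genes the treated libraries lay above the controls on each allele. In Tra2b, the allelic reads differed from the total: the PSI on the first-listed allele was 0.0406 and 0.0332 in DMSO and 0 and 0.0833 in PladB, and on the second 0.0526 and 0.0322 against 0.0413 and 0.0543. Only 47 to 68 allelic reads per library and allele were left after PladB, and the groups overlapped. The total PSI after PladB was 0.313 and 0.369, from 388 and 475 reads. The rise in Tra2b was thus seen in the total reads and not in the reads assigned to an allele. Most of the total reads after PladB, of which 185 and 256 were inclusion reads, were not assigned to an allele. The allelic values of Tra2b thus cannot decide whether the rise took place. In Col6a3 the alleles went opposite ways.

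At the level of the gene, TPM was lower in both PladB libraries than in both DMSO libraries in 372 of the 423 genes with a member (87.9%), against 82.9% of the 8762 genes with an event measured. It was higher in 33 of them (7.8%, against 13.5%). The median change was -1.41 on the log2 scale, with a pseudocount of 0.1 TPM, against -1.34 over the genes with an eligible event, of which 86.7% were lower, and -1.26 over the 8762 genes, while genes with a lower-inclusion event had -1.81. TPM is a share of each library, so a lower TPM is a smaller share of the transcripts and not an amount per cell. In these bulk libraries, fewer cells with a transcript and less of it in each cell cannot be told apart. The genes with a member had a median of 18.3 TPM in DMSO, against 31.7 TPM over all genes with an event. Among the named members, Mbnl2 had 258 and 260.3 TPM in DMSO and 45.2 and 43.8 in PladB, and Ptbp2 43.4 and 42.2 against 24.5 and 27.4. Jak3 had 7.62 and 6.49 against 7.4 and 7.63, which overlap, and Ganab was higher after PladB, with 296.8 and 288.7 against 370.7 and 358.8. A higher inclusion of an exon was thus seen in genes with lower, similar and higher TPM.

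Intron retention was measured in 104 introns of 60 genes with a member. It was at least 0.05 higher after PladB, with the libraries apart, in 50 of them (48.1%), against 44.5% of the 1802 introns measured. These introns lay in 38 of the 60 genes (63.3%), against 46% of the genes with an eligible event and 48% of all genes with an intron measured. In genes with a lower-inclusion event the shares were 57.3% of the introns and 65.4% of the genes, so the share of genes is not particular to the members. The share also depends on how many introns a gene has measured, with 715 introns in 461 genes for the eligible events. Only 11 members had an intron next to their exon among those measured, and its retention was higher in 5 of these, against 53 of 104 eligible events.

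The 14 tissue libraries took no part in the choice of the members. In at least 1 tissue 480 members were expressed, with at least 20 reads in both libraries, and 263 (52.7%) were expressed in all 7, against 56.4% of the eligible and 18.5% of the lower-inclusion events. The number expressed ranged from 319 in liver to 419 in kidney. The median PSI of the members expressed in a tissue was similar over the tissues, from 0.725 in ESC to 0.782 in liver. In each tissue the median member lay above its own PSI in DMSO fibroblasts, by 0.022 in ESC to 0.0483 in cortex, and below its PSI after PladB, by 0.0486 in cortex to 0.0685 in spleen. In lung, for example, 289 of 408 members had a higher PSI than in DMSO fibroblasts and 101 a higher PSI than after PladB. In the eligible events, too, 2972 of 4536 had a higher PSI in lung than in DMSO. Unlike the members, most eligible events, 3209 of 4536, also had a higher PSI in lung than after PladB. The rule chose members with a lower PSI in DMSO than after PladB. A tissue value between these groups can follow from that choice alone, so the place of the members between them is not a test.

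Over the 263 members expressed in all tissues, the PSI in DMSO lay within the range of the 7 tissue means in 194, below it in 52 and above it in 17. After PladB it lay within the range in 135 and below in 11, and in 117 members (44.5%) it lay above the PSI of each of the 7 tissues. Of the eligible events 7.97% and of the lower-inclusion events 0.868% lay above all tissues after PladB. The rule selected for a high PSI after PladB, so that these shares are not a test. They show that for many members the treated fibroblasts included the exon more often than any of the tissues measured.

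Whether the PSI of an event varied over the tissues was tested with a quasi-binomial model of inclusion and skipping reads, in which dispersions were moderated with limma, on all 7913 autosomal events with at least 20 reads in every tissue library. Events were called at a Benjamini-Hochberg adjusted p under 0.05 and a range of mean PSI of at least 0.1. Of the 263 members, 169 were called (64.3%), against 31.1% of all events, 54.7% of the eligible events and 48.6% of the events with lower inclusion. The share of members lay above each of these backgrounds, but the comparison with the eligible events turned when events that were nearly always included or nearly always skipped in every library were left out, with 70.9% of members and 72.7% of eligible events called. By adjusted p alone, 68.1% of the members and 67.8% of the eligible events passed. The median range of mean PSI was 0.225 for members and 0.158 for eligible events. Among the called members, 38 had a range over 0.5. The tissue with the highest PSI was cortex in 54, liver in 27, ESC in 25, heart in 22, spleen in 20, kidney in 14 and lung in 7 of the 169. Cortex was also most often the tissue with the lowest PSI, in 45 of them. Called or not, cortex was highest in 71 of the 263 members and in 802 of the 3086 eligible events, which are similar shares. Of the called members 38.5% had a length divisible by 3, and of the others 39.4%.

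The members with the widest ranges were called, and in the first 4 described here cortex had the highest PSI. A 151 bp exon of Gabbr1, a subunit of the GABA-B receptor, was included almost always in cortex, at 0.985, and at 0.0229 to 0.16 in the other tissues (adjusted p = 9.65e-17, limma-moderated F test). The 2 liver libraries were apart, with 0.304 and 0.0159. In fibroblasts the exon had 0.47 and 0.482 in DMSO and 0.704 and 0.543 in PladB, between the means of cortex and the rest. The fibroblast reads assigned to an allele gave higher values, from 0.711 to 0.875 in DMSO and from 0.897 to 0.917 in PladB. A 129 bp exon of Dennd1a, an exchange factor for Rab35 in endocytosis, had 0.955 in cortex and 0.705 in heart, 0.256 in ESC and at most 0.0613 elsewhere. In fibroblasts it had 0.051 and 0.0924 in DMSO against 0.193 and 0.133 in PladB, where only 26 and 27 reads were left. The 70 bp exon of Parp6 had 0.929 in cortex and at most 0.163 in the other tissues, and in fibroblasts 0.0772 and 0.164 against 0.382 and 0.398, which is above the tissues other than cortex. For the 34 bp exon of Ptbp2 the means were 0.962 in cortex, 0.878 in ESC, 0.871 in heart, 0.49 in kidney, 0.455 in liver, 0.254 in lung and 0.0636 in spleen (adjusted p = 7.42e-11, limma-moderated F test). Its mean after PladB, 0.907, lay between cortex and ESC.

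Heart had the highest PSI for a 72 bp exon of Lrrfip1. Its mean PSI was 0.889 in heart, 0.573 in ESC, 0.385 in lung and at most 0.109 in the other tissues. In fibroblasts it had 0.323 and 0.345 in DMSO and 0.379 and 0.457 in PladB, and the treated values stayed far below that of heart.

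The exons of splicing genes differed in their tissue pattern. The Mbnl2 exon had its highest mean PSI in ESC, 0.872, and its lowest in heart, 0.132 (adjusted p = 1.98e-08, limma-moderated F test), and both fibroblast groups lay between them. The Rbm39 exon was highest in ESC, 0.405, and lowest in heart, 0.101. The Luc7l2 exon ranged from 0.453 in heart to 0.936 in liver, and its mean of 0.954 after PladB lay above them all. The Scaf1 exon ranged from 0.36 in kidney to 0.647 in cortex and had 0.806 after PladB. The Tra2b exon was not called: its mean PSI ranged from 0.0557 in lung to 0.19 in ESC (adjusted p = 0.175, limma-moderated F test). Its mean of 0.341 after PladB lay above each tissue, though its allelic reads, a small part of the total, did not show the rise. Zfp414 was highest in liver, with 0.505, and its mean of 0.758 after PladB was above each tissue too.

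**Figure D5:**
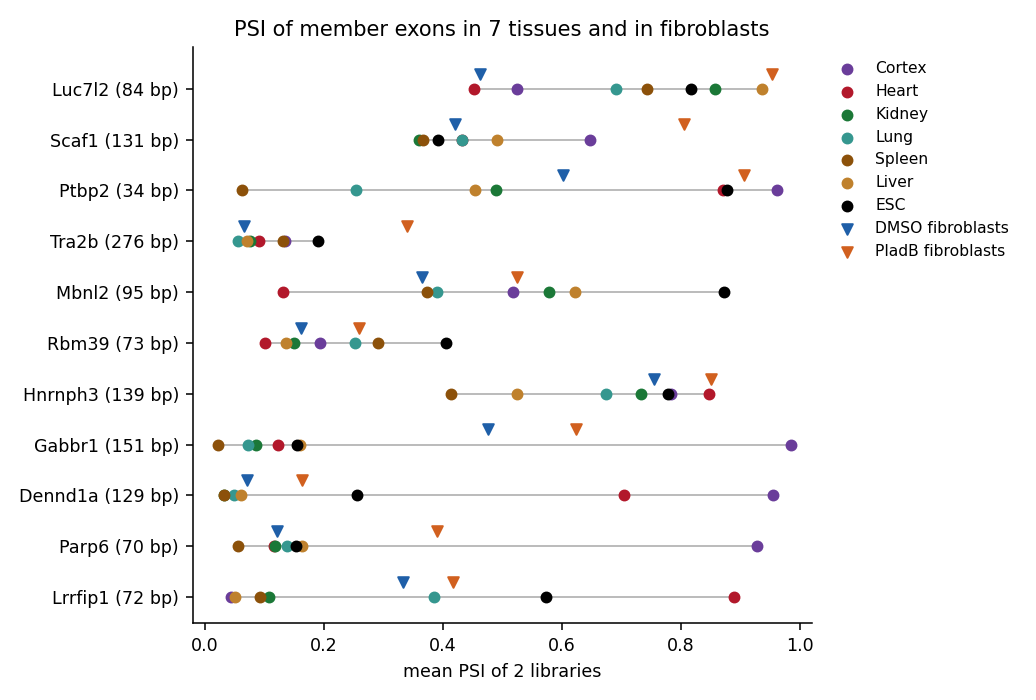
Mean PSI (x axis, 2 libraries each) in the 7 tissues (circles joined by a grey line) and, just above each row, in DMSO and PladB fibroblasts (blue and orange triangles), for members in splicing and RNA-binding genes and for members with wide ranges over the tissues. PladB lies above all tissues for Luc7l2, Scaf1, Tra2b and Hnrnph3 and inside the range for the others.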

How the data were processed

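Per the labels and the paper, the authors aligned reads with HISAT2 2.0.1 to mm10 and a SPRET/EiJ genome and counted junction reads with rMATS on Ensembl 74. The deposited tables hold these counts, not normalized, with both replicates in 1 list, the effective length of each form, entered here as a score, and TPM values. The authors' p-values, FDR and inclusion levels were not used.

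Inclusion reads and skipping reads were each divided by the effective length of the form to give the PSI, with the list position as replicate. The members and lists were chosen with earlier results of these data known. The named genes are those with the largest differences or tissue ranges, those at the limit, and those leading each list, except that 1 of them is not reported here. Tissue variation was tested with a quasi-binomial model (R 4.3.3, limma 3.58.1, squeezeVar with a depth trend, dispersions of at least 1). It took the place of the negative binomial fit planned at first, which was not run. The model was tested on simulated data. Of 423 member genes 420 matched a RefSeq symbol (GRCm38.p6), 410 protein-coding. Python 3.11.15 with pandas 2.3.3 and scipy 1.17.1 was used. Sequences and the coding or untranslated place of exons were not analysed here.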

Additional observations from a re-analysis of the deposited data

Results flagged for a closer look

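For the 600 bp exon of Col6a3 the alleles went opposite ways, every library of each allele included. On the first-listed allele the PSI was 0.791 and 0.451 in DMSO and 0.372 and 0.324 in PladB, a change in mean PSI of -0.273. On the second-listed allele it was 0.106 and 0.213 in DMSO and 0.622 and 0.231 in PladB, a change of 0.267. Events were not filtered by the match of allelic and total PSI. Reads per allele and library numbered from 30 to 142, the replicates were far apart, and the difference between the alleles was not tested. Among the 171 members with allelic reads this was the only such case, against 97 of 2698 eligible events.

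Events on the X chromosome took no part in the comparisons. Of 1756 such events with at least 20 reads in every fibroblast library, 23 passed the same limits for a higher PSI after PladB than in the control libraries.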

How the results depend on the processing

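The number of members followed the limits: 293 events passed with a minimum of 50 reads per library, 211 with a difference of at least 0.1, 651 with a minimum of 10, and 180 with a minimum of 100 reads, an alternative chosen after seeing the data. Without effective lengths 398 events passed, and only 358 of the 499 members were among them. Leaving out 1 library at a time gave from 712 to 802 events, because a group of 1 library separates more easily, with 795 without the first PladB library and 802 without the second. The share with a length divisible by 3 then ranged from 38.9% to 44.5%, and the median length from 106 to 111 bp. The median length was 116.5 bp with a minimum of 100 reads. Under the other settings the share lay from 37.2% with a minimum of 50 reads to 41.5% without effective lengths. Comparing only libraries of the same list position, as a replicate block, gave 540 events. In the tissues the replicate block gave 174 called members, against 169. Deviations of libraries with the same number had correlations from -0.0587 to 0.0535 over the tissues, and no source used here says that a number marks 1 animal, so the numbers were not taken to pair the samples. Without single tissue libraries, 155 to 193 members were called, the most without either ESC clone. A likelihood ratio test with another count model and scaled library sizes were planned and not run. Low depth after PladB limits most of the members.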

Other observations

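The members described here were named after their values were seen. Hnrnph1 and Hnrnph3, paralogs between which the split of reads is uncertain, each had a member exon of 139 bp. In Hnrnph1 the PSI was 0.805 and 0.807 in DMSO and 0.901 and 0.866 in PladB, with at least 5200 reads in every library. Snrpa1, which encodes the U2 snRNP protein A', had an 80 bp exon with 0.873 and 0.895 against 0.971 and 0.977. A 40 bp exon of Rbfox2, a regulator of neuronal and muscle exons, had 0.775 and 0.758 against 0.854 and 0.802. For Clk4, a kinase of SR proteins, the same 67 bp exon was a member in 3 events, and the best covered of them, with at least 171 reads, had 0.106 and 0.117 against 0.142 and 0.182.

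Among genes of mitochondria, Slc25a38, a mitochondrial glycine carrier, had 2 overlapping exons, and the 73 bp form had a PSI of 0.322 and 0.217 in DMSO and of 0.574 and 0.663 in PladB. A 33 bp exon of Mff, a receptor for the fission protein Drp1, had 0.0788 and 0.0921 against 0.245 and 0.238.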
